A study of Homo sapiens with 12 samples.

Results

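The genes described here are 42 genes of the primary cilium: 14 of intraflagellar transport, 11 of the BBSome, its GTPase and its chaperonin-like assembly factors, and 17 of the transition zone and the ciliary base. They were taken from a fixed list of symbols, chosen because INTS13 has been linked to ciliopathy, and make up 42 of the 19970 protein-coding genes of chromosomes 1 to 22 and X. Peaks came from chromatin immunoprecipitation and sequencing in wild-type HEK293T cells, an established human embryonic kidney line, fixed with formaldehyde. Antibodies were directed against INTS13, INTS11, HDGF, ZEB1 and ZNF609, with 2 libraries each. No treatment was given and all libraries came from this 1 line, so the comparisons are between antibodies and between genes. Input chromatin libraries were not used here, and peak lists hold no expression values against which the identity of the cells could be checked. Nothing in the labels ties the replicates to different cultures, and their spread may be technical only.

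A primary cilium is a microtubule-based antenna that grows from the mother centriole and carries receptors of signalling pathways such as Hedgehog. Trains of intraflagellar transport (IFT) proteins move along it, IFT-B outward and IFT-A back to the base. The BBSome is a coat that carries membrane proteins out of the cilium, and the transition zone at its base is a gate that decides what enters. INTS13 and INTS11 are subunits of Integrator, which binds RNA polymerase II and cleaves nascent transcripts near gene starts; INTS11 is the endonuclease. HDGF is a PWWP-domain chromatin protein, and ZEB1 and ZNF609 are zinc finger proteins.

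Promoters are shown for the 6 members whose start windows (1 kb around any listed start) held regions of the most proteins, a region being a merged stretch that contains a peak of each replicate. Each sequence is the 250 bases upstream of the outermost RefSeq start (GRCh38.p14), read 5′ to 3′ in the direction of transcription. Capitals mark CCAAT boxes (CCAAT on either strand) and the X-box, the binding motif of RFX factors, which are known activators of ciliary genes. IFT27 and B9D1 lie on the minus strand at chr22:36776120-36776369 and chr17:19377914-19378163. B9D2 and TCTN3, also on the minus strand, lie at chr19:41364150-41364399 and chr10:95693928-95694177. IFT122 and BBS12 lie on the plus strand at chr3:129439974-129440223 and chr4:122732454-122732703.
IFT27: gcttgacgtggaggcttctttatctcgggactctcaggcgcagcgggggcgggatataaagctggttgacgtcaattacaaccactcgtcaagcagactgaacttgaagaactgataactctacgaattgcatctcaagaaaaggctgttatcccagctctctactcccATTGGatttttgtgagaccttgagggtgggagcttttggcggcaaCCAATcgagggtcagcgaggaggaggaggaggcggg
B9D1: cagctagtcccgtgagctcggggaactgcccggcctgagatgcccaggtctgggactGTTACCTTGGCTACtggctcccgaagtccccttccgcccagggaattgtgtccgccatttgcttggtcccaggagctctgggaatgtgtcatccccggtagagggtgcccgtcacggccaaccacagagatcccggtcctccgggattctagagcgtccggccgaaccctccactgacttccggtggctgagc
B9D2: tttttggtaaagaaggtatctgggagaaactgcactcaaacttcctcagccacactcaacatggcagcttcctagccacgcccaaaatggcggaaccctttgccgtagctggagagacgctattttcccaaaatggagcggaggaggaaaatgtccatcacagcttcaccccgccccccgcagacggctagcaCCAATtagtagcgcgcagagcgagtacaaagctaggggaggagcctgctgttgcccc
IFT122: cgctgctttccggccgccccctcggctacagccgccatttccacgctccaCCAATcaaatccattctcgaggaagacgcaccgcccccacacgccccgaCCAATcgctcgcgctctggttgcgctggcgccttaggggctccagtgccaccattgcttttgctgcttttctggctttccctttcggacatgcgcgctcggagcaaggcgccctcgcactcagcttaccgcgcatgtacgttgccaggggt
TCTN3: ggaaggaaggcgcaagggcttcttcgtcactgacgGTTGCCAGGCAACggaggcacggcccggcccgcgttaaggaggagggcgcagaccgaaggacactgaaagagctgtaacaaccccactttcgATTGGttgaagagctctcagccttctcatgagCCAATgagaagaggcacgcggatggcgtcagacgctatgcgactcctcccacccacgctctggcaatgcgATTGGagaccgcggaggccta
BBS12: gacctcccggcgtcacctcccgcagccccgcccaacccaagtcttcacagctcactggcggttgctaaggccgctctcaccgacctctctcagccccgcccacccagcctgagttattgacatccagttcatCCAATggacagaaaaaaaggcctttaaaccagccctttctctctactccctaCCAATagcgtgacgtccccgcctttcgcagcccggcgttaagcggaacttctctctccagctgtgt

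The IFT27 start window held regions of INTS13, INTS11 and HDGF. That of B9D1 and that of TCTN3 held INTS13 and INTS11, and those of B9D2, IFT122 and BBS12 held INTS13 and HDGF. In INTS13 replicate 1 a peak covered all 250 bases in 5 of these promoters and 228 bases in BBS12. A start was listed for 38 of the 42 members and for 15773 other genes, which were searched over the same 250 bases on both strands. A CCAAT box was present in 16 of 38 members (42.1%) and 34.4% of the other genes. The X-box, with at most 3 bases between its arms, was present in 2 of 38 members (5.26%), B9D1 and TCTN3, against 1.18%. CACCTG, the E-box recognised by ZEB1, was present in 3 of 38 members (7.89%), BBS10, IFT57 and IFT74, against 17.1%. Median GC content was 60.4% in members and 62.4% in other genes. In the printed promoters no marked motif overlapped another, and a match describes the sequence only.

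INTS13 was near an end of most cilium genes, as it was near most other genes, and the other 4 proteins were near few. With regions found in both replicates and a window of 1 kb around each gene end, INTS13 was at 28 of 42 members (66.7%), beside 63.7% of other protein-coding genes. HDGF was at 8 members (19.0%), beside 22.2%. INTS11 was at 3 members (7.14%), beside 17.5%. ZEB1 and ZNF609 were at 0 of 42, beside 3.79% and 1.57%. The differences from the other genes were 2.94 percentage points for INTS13, -3.12 for HDGF, -10.3 for INTS11, -3.79 for ZEB1 and -1.57 for ZNF609. For INTS13, INTS11, HDGF and ZEB1 each difference was smaller in size than the SD of the differences in the 2 single lists (8.78, 14.0, 7.35 and 5.08 points). For ZNF609 the difference was larger than that SD (0.849). A single list counts any gene with a peak in it, a looser rule than a region in both. This SD therefore does not measure the spread of the region differences. No test was made over genes, which share libraries and neighbourhoods.

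**Figure D1:**
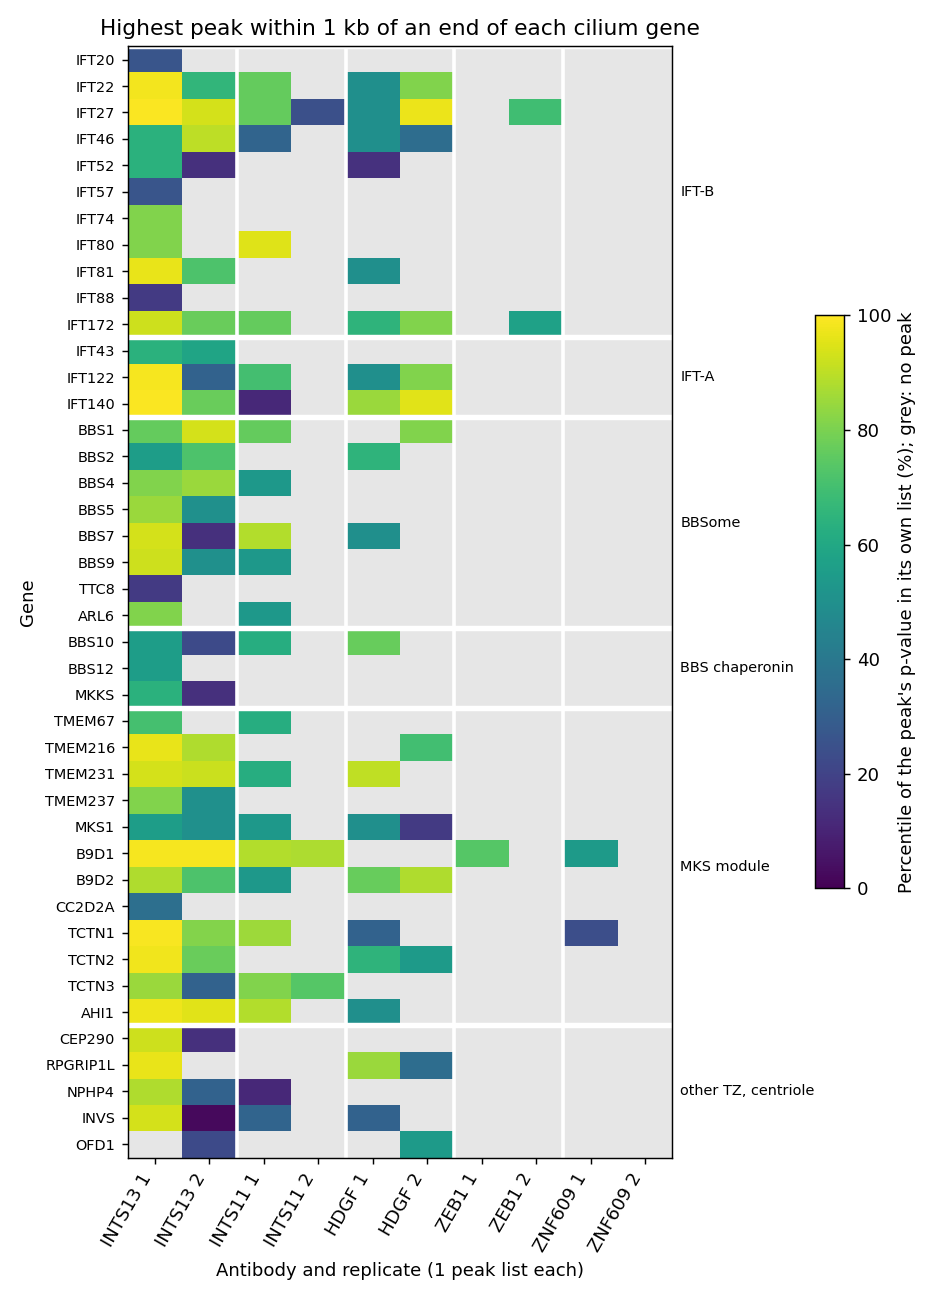
Each row is a cilium gene, grouped by role (TZ, transition zone), and each column a peak list named by antibody and replicate. Colour gives the percentile, within its own list, of the p-value of the highest peak within 1 kb of either gene end (0 to 100%), and grey means no peak; 41 of 42 genes have a peak in INTS13 replicate 1 and 0 in ZNF609 replicate 2.

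Single lists differed widely at these genes. INTS13 replicate 1 had a peak at 41 of 42 members (97.6%, other genes 79.5%) and replicate 2 at 31 (73.8%, other genes 68.1%). INTS11 replicate 1 had a peak at 23 (54.8%, other genes 50.0%) and replicate 2 at 3 (7.14%, other genes 22.3%). Thus the INTS11 lists lay on opposite sides of the background. HDGF replicate 1 had a peak at 19 members (45.2%, other genes 38.5%) and replicate 2 at 13 (31.0%, other genes 34.6%), again on opposite sides. ZEB1 replicate 1 had a peak at 1 member, B9D1 (2.38%, other genes 13.3%), and replicate 2 at 2, IFT172 and IFT27 (4.76%, other genes 8.49%). ZNF609 replicate 1 had a peak at 2 members, TCTN1 and B9D1 (4.76%, other genes 7.01%), and replicate 2 at 0 (other genes 3.44%). Every member had a peak in at least 1 of the 10 lists, whereas 3447 of 19928 other genes (17.3%) had none. The lists held between 26409 and 416964 peaks on these chromosomes, so their lengths bear on these counts. Cilium genes also lay less often in 1-Mb bins crowded with peaks (5 of 42, 11.9%, against 23.1%) and more often had another protein-coding gene's end within 1 kb (19 of 42, 45.2%, against 28.6%); the part of either in these counts was not tested, apart from the values outside crowded bins given below.

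**Figure D2:**
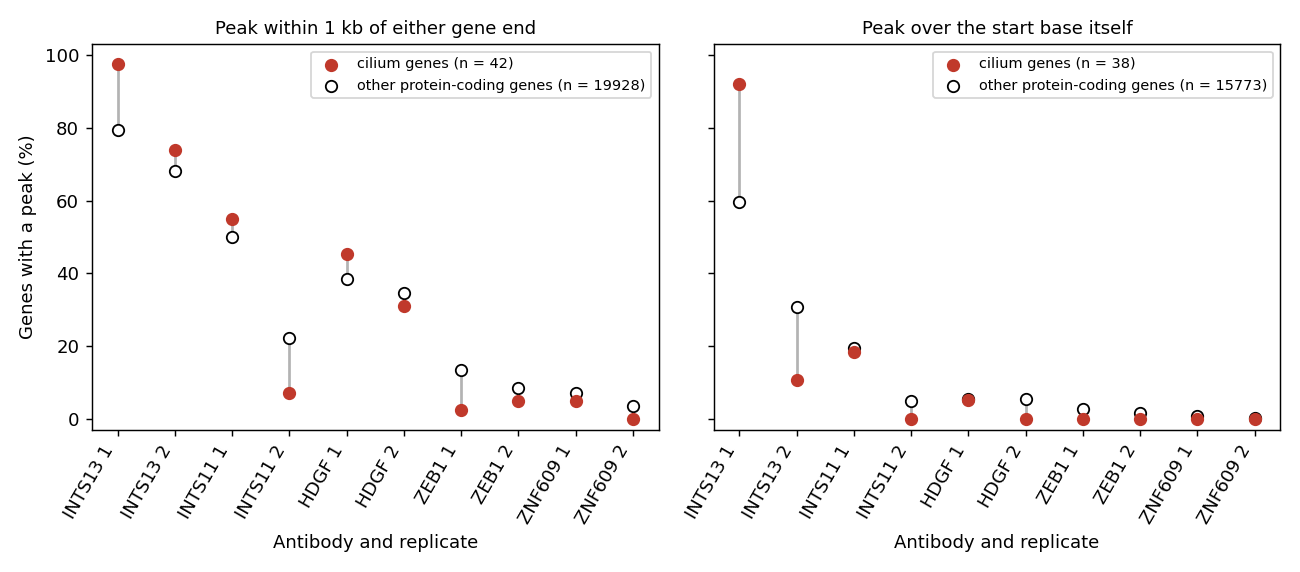
Share of genes (%) with a peak in each of the 10 lists, for cilium genes (filled) and other protein-coding genes (open), near either gene end on the left and over the start base on the right. The widest gaps on the right are those of INTS13 replicate 1 (92.1% against 59.5%) and INTS13 replicate 2 (10.5% against 30.6%), in opposite directions.

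The 2 INTS13 libraries placed their peaks differently at cilium gene starts. The start is here the outermost start listed by RefSeq, which in BBS12, IFT46 and OFD1 lies inside the gene, and it was scored as covered where the base itself lay inside a peak. In replicate 1 the start was covered in 35 of 38 members (92.1%), against 59.5% of other genes. In replicate 2 it was covered in 4 of 38 (10.5%), against 30.6%. Those 4, AHI1, TMEM216, BBS1 and B9D1, were covered in both lists. A further 31 members (81.6%) were covered in replicate 1 only, against 32.2% of other genes, and 0 in replicate 2 only, against 3.38%. The 3 members covered in neither list were CC2D2A and TTC8, a transition zone and a BBSome gene, and BBS4 of the BBSome. This measure was chosen after the values had been seen. Since a region merges overlapping peaks, 22 of 38 members (57.9%, other genes 51.7%) had a start inside a merged INTS13 region, and in 18 of these no replicate 2 peak lay over the start itself.

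Around these starts the coverage of replicate 1 was a narrow peak and that of replicate 2 a trough. In replicate 1, a peak was present 500 bp upstream of the start in 55.3% of members, at the start in 92.1%, 500 bp downstream in 52.6% and, on average, in 15.0% at 4 to 5 kb on either side. Other genes had 46.5%, 59.5%, 52.2% and 23.7%. In replicate 2 the members had 18.4% at 500 bp upstream, 10.5% at the start, 26.3% at 500 bp downstream and 16.4% at 4 to 5 kb. Other genes had 30.6%, 30.6%, 35.7% and 22.9% there. Thus cilium genes lay above other genes in replicate 1 at the start and below them in the flanks, and below them at all of these positions in replicate 2.

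**Figure D3:**
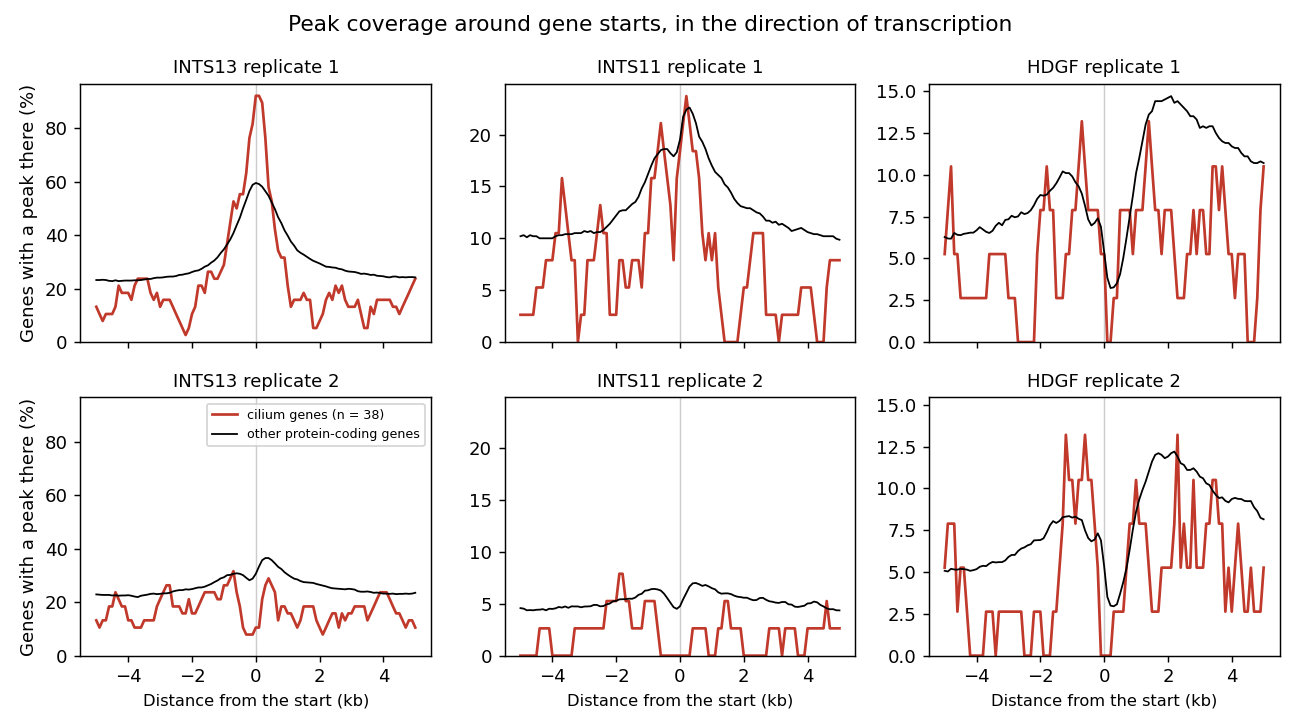
Share of genes (%) with a peak at each distance from the start, every 100 bp from 5 kb upstream (negative) to 5 kb downstream, for 38 cilium genes (red) and other protein-coding genes (black); the vertical scale differs between proteins. INTS13 replicate 1 rises to 92.1% of cilium genes at the start, while INTS13 replicate 2 stands at 10.5% there.

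The replicate 1 peaks over cilium gene starts were no higher than those over other starts. Their fold over the authors' background had a median of 2.68 over 35 members, from 1.99 at IFT88 to 4.41 at IFT140. Peaks over the starts of 9378 other genes had a median of 2.94. The percentile of a peak is the share of peaks in its own list with a -log10 p at or below it, and its median was 81.1 in members and 90.3 in other genes. Median width was 1158 bp in members and 1617 bp in others. Summits lay within 500 bp of the start in 31 of 35 members, at a median distance of 176 bp, 21 downstream and 14 upstream. These peaks were selected for covering the start, which itself limits the distance, and summit distances were not compared with other genes. With a -log10 q of 5 or more, replicate 1 covered the start in 15 of 38 members (39.5%), close to the 36.4% of other genes, and with the 10000 strongest peaks in 4 (10.5%, other genes 10.9%). The excess was thus seen with all peaks of this list and not with its strongest, and it rests on this list alone.

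The excess in replicate 1 was also present outside crowded bins and at genes with no other gene end within 1 kb of either of their ends. Outside crowded bins 32 of 34 members were covered (94.1%), against 52.5% of other genes. Among genes with no other gene end within 1 kb it was 17 of 19 (89.5%) against 53.9%, and among genes with one it was 18 of 19 (94.7%) against 72.6%. In replicate 2 the shares outside crowded bins were 3 of 34 (8.82%) against 21.3%.

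INTS11 and HDGF seldom covered these starts. INTS11 replicate 1 covered 7 of 38 (18.4%, other genes 19.5%), namely AHI1, TCTN3, BBS10, TCTN1, TMEM231, B9D1 and MKS1. INTS11 replicate 2 covered 0 (other genes 4.76%). HDGF replicate 1 covered 2, BBS7 and TMEM231 (5.26%, other genes 5.38%), and replicate 2 covered 0 (other genes 5.34%). ZEB1 and ZNF609 covered 0 of 38 in each list. Other genes had 2.61% and 1.5% in the ZEB1 lists and 0.754% and 0.26% in the ZNF609 lists. Each 0 thus lay beside a low background share.

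By role, INTS13 regions were found at the ends of 5 of 11 IFT-B genes, 3 of 3 IFT-A genes, 6 of 8 BBSome genes, 1 of 3 chaperonin-like genes, 10 of 12 genes of the MKS module of the transition zone, and 3 of 5 other genes of the transition zone and centriole, beside 63.7% of other protein-coding genes. HDGF regions were at 3 IFT-B, 2 IFT-A, 2 MKS module genes and 1 of the last group, and at 0 of the 11 BBSome and chaperonin-like genes, beside 22.2%. INTS11 regions were at 1 IFT-B gene and 2 MKS module genes, beside 17.5%. These are counts in small groups, from which nothing particular to a group can be read, and differences between them were not tested.

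IFT-B trains carry tubulin and other cargo toward the ciliary tip. The 5 IFT-B genes with an INTS13 region were IFT172, IFT22, IFT46, IFT81 and IFT27. IFT27, a Rab-like GTPase of the train that helps the BBSome leave the cilium, was the member with regions of the most proteins. It lies on the minus strand at chr22:36758211-36776119, in a bin with 4.57 times the mean peak density. Its highest INTS13 peaks had folds of 4.33 and 2.74 in replicates 1 and 2, at percentiles 99.6 and 93.5. Both of these peaks lay at its 3′ end, with summits 18182 and 17930 bp downstream of the start; another replicate 1 peak, with a fold of 3.29, covered the start. HDGF had folds of 2.96 and 4.65, with the summits 621 and 875 bp upstream of the start; the latter stood at percentile 97.2, the highest of any member in an HDGF list. INTS11 had folds of 2.34 and 2.02, with the summits 16888 bp downstream and 1043 bp upstream of the start. The second of these peaks stood only at percentile 24.4. ZEB1 replicate 2 had a peak of 2.80 there, 736 bp upstream of the start, which replicate 1 lacked. The IFT27 windows therefore carried peaks in 7 of 10 lists.

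IFT172, a large IFT-B subunit that acts at the tip, carried peaks in 6 lists. Its INTS13 folds were 3.03 and 2.35 and its HDGF folds 3.16 and 3.72. The HDGF region lay at its 3′ end, as did the replicate 1 peak with a fold of 3.16. The HDGF replicate 2 peak with a fold of 3.72 had its summit 1079 bp upstream of the start. The INTS13 regions were at both ends. IFT22, another Rab-like member, had INTS13 folds of 3.64 and 2.22 and HDGF folds of 2.96 and 3.72. Its highest INTS13 peaks in the replicates lay at opposite ends of the gene. The remaining 6 IFT-B genes, IFT20, IFT52, IFT57, IFT74, IFT80 and IFT88, had no INTS13 region. In replicate 2, 5 of them had no INTS13 peak, and IFT52 had peaks in both lists that did not touch. IFT80 had the highest INTS11 peak near an end of any member, with a fold of 2.82 at percentile 95.2 in replicate 1. Its summit lay 952 bp upstream of the start, beside an end of SMC4, and INTS11 replicate 2 had no peak there. IFT88, the classical subunit whose loss abolishes cilia, had a peak in INTS13 replicate 1 alone, with a fold of 1.99 at percentile 16.9 and its summit 1 bp from the start.

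The 3 IFT-A genes, IFT122, IFT140 and IFT43, each had an INTS13 region; IFT-A brings trains back and imports membrane receptors. IFT140 had the highest INTS13 peak of all members, with a fold of 4.41 in replicate 1 at percentile 99.6, and a fold of 2.35 in replicate 2. The replicate 1 peak was 4617 bp wide and covered the start, whereas the highest replicate 2 peak lay 101630 bp downstream, at the far end. The highest HDGF peak of replicate 1, with a fold of 3.55, lay at the far end, and that of replicate 2, with a fold of 4.41, lay 1153 bp downstream of the start. IFT122 had INTS13 folds of 3.72 and 1.96 and HDGF folds of 2.96 and 3.72. IFT140 at chr16:1510427-1612072 lies beside ends of CRAMP1 and TELO2, and IFT122 at chr3:129440224-129520507 beside MBD4, so peaks in these windows cannot be assigned to 1 gene.

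BBSome genes carried INTS13 and no other protein in both replicates. The 6 were BBS1, BBS2, BBS4, BBS5, BBS7 and BBS9, coat subunits. At BBS4 and BBS7 the INTS13 region lay at the far end and not at the start. Ends of HIGD2B, CCNA2 and DPP3 lie within 1 kb of an end of BBS4, BBS7 and BBS1. Peaks near those ends cannot be assigned to 1 gene. BBS1 had INTS13 folds of 2.60 and 2.74, at percentiles 76.4 and 93.5 of their lists. The first peak had its summit 21261 bp downstream of the start, at the far end, and the second 942 bp upstream. The replicate 1 peak over the BBS1 start had a fold of 2.51 at percentile 70.7. BBS5 had INTS13 folds of 2.77 and 2.09, with the summits 169 and 460 bp downstream of the start. TTC8, a coat subunit, and ARL6, the GTPase that recruits the coat to membranes, had an INTS13 peak in replicate 1 and not in replicate 2, with folds of 1.99 and 2.68; ARL6 also had a peak in INTS11 replicate 1, with a fold of 2.14. Of the chaperonin-like genes, which help the BBSome assemble, MKKS had a region, with folds of 2.42 and 1.83. BBS10 had INTS13 peaks in both lists, with folds of 2.34 and 1.89, but they did not overlap. BBS12 had no region at its gene ends, but its listed start lies 32.3 kb inside the gene. There it had INTS13 folds of 2.68 and 2.02 and HDGF folds of 3.75 and 3.95.

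The MKS module builds the membrane part of the transition zone gate. Its 10 genes with an INTS13 region were TMEM237, AHI1, TCTN3, TMEM216, TCTN1, TCTN2, TMEM231, B9D1, MKS1 and B9D2; CC2D2A and TMEM67 had an INTS13 peak in replicate 1 and not in replicate 2. B9D1 encodes a B9-domain protein that binds MKS1 and B9D2. It lies on the minus strand at chr17:19334695-19377913, in a bin with 3.78 times the mean peak density. Its INTS13 folds were 3.72 and 3.33, at percentiles 98.5 and 98.7, and its INTS11 folds 2.55 and 2.60, at percentiles 88.3 and 87.7. The replicate 1 summits lay near its 3′ end, 41736 bp (INTS13) and 45185 bp (INTS11) downstream of the start. Those of replicate 2 lay 114 bp downstream (INTS13) and 1092 bp upstream (INTS11). An INTS13 replicate 1 peak over the start also had a fold of 3.72. Both antibodies thus had high peaks in both lists, though the highest lay at opposite ends. An end of MAPK7 lies within 1 kb of an end of B9D1, so peaks near that end cannot be assigned to 1 gene. B9D1 was the only member that kept an INTS13 region among the 10000 strongest peaks of each list (2.38%, other genes 4.67%). The INTS13 and INTS11 regions overlapped by 6647 bp. ZEB1 replicate 1 (fold 2.74) and ZNF609 replicate 1 (2.58) also had a peak at its 3′ end, absent from their other lists.

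AHI1, or jouberin, had INTS13 folds of 3.46 and 2.87 with summits 228 and 188 bp downstream of the start. TMEM216 had 3.38 and 2.55, with summits 4 and 705 bp upstream, and the peaks over the BBS1 start had summits 923 and 942 bp upstream. The summits of the replicates thus lay close together at AHI1 and BBS1 and apart at TMEM216. AHI1, B9D1 and IFT27 were the only members with an INTS13 region when peaks were limited to a -log10 q of 5 or more (7.14%, other genes 18.2%). TCTN3, a tectonic secreted or membrane-bound at the gate, had INTS13 folds of 2.77 and 1.96 and INTS11 folds of 2.41 and 2.38. The INTS11 summits lay 525 and 677 bp downstream of its start. It was the only member with an INTS11 region outside crowded bins (2.7%, other genes 5.83%). An end of ENTPD1 lies within 1 kb of an end of TCTN3, and peaks near that end cannot be assigned to 1 gene.

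B9D2, the B9 partner, had INTS13 folds of 2.86 and 2.29 and HDGF folds of 3.35 and 3.95. The INTS13 summits lay 9669 bp downstream of the start, near the far end, in replicate 1 and 1033 bp downstream in replicate 2. Ends of TGFB1 and TMEM91 lie within 1 kb of B9D2, at chr19:41354417-41364149. An end of EPX likewise lies near MKS1 and an end of FTO near RPGRIP1L. Peaks near such ends cannot be assigned to 1 gene. MKS1 had INTS13 folds of 2.34 and 2.09 and HDGF folds of 2.96 and 2.79. Its HDGF region lay at the start. Its INTS13 region lay at the far end, although the highest INTS13 peaks were 148 and 561 bp downstream of the start, and it was the 1 of 7 members with both proteins where the regions did not overlap. RPGRIP1L, a transition zone scaffold, had an HDGF region (folds of 3.55 and 3.02) and no INTS13 region, since INTS13 replicate 2 had no peak there; the replicate 1 peak had a fold of 3.38 with its summit 26 bp from the start. NPHP4, INVS and CEP290 had INTS13 regions alone; the highest replicate 2 peak at INVS had a fold of 1.70 at percentile 2.59. OFD1, a centriolar protein, was the only member with no peak at its ends in INTS13 replicate 1; its listed start lies 20.2 kb inside the gene and was covered there by a peak with a fold of 3.12.

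Co-occupancy with INTS13 at cilium genes was close to that at other genes. INTS13 was at 3 of 3 members with INTS11, beside 99.1% of other genes with INTS11, and its region overlapped that of INTS11 in 3 of 3. It was at 25 of 39 members without INTS11 (64.1%), beside 56.2%. It was at 7 of 8 members with HDGF (87.5%), beside 96.4% of other genes with HDGF, and at 21 of 34 members without HDGF (61.8%), beside 54.4%. The regions of INTS13 and HDGF overlapped in 6 of 7 of these genes, by 65 bp at IFT122 to 1625 bp at IFT22. Overlap of regions was counted at members only, so the overlap counts have no background share beside them. By number of proteins, 13 members had none (31.0%, other genes 35.4%), 20 had 1 (47.6%, 36.4%), 8 had 2 (19.0%, 16.8%) and 1 had 3 (2.38%, 8.06%). No member had 4 or 5 proteins, beside 2.19% and 1.14% of other genes.

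Another 49 cilium genes, covering further IFT and BBS subunits, motors, transition zone, signalling and basal body genes and ciliary transcription factors, were counted the same way; differences from the members were not tested. INTS13 was at 37 of 49 (75.5%), beside 63.7% of the 19928 genes that are not members. INTS11 was at 8 (16.3%, beside 17.5%), HDGF at 10 (20.4%, beside 22.2%), ZEB1 at 2 (4.08%, beside 3.79%) and ZNF609 at 1 (2.04%, beside 1.57%). Shares of the last 4 proteins thus lay near that background. INTS13 was at 7 of 8 motor genes, among them KIF3A and KIF3B of the outward kinesin and DYNC2H1 of the return dynein, and at 9 of 11 membrane and signalling genes, among them SMO and PTCH1 of Hedgehog signalling, again beside 63.7%. ZEB1 was at DYNC2I1 and SUFU and ZNF609 at IFT56. At the start base, INTS13 replicate 1 covered 33 of 40 of these genes with a listed start (82.5%) and replicate 2 covered 13 (32.5%). The replicate 1 share thus lay above the 59.5% of other genes here as well, while the replicate 2 share lay beside 30.6%.

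The INTS13 difference near gene ends turned to -0.541 points with a window of 5 kb and to -11.0 with a -log10 q of 5 or more. Outside crowded bins the differences were 7.91 points for INTS13 (62.2% against 54.3%), 1.14 for HDGF (13.5% against 12.4%) and -3.12 for INTS11 (2.70% against 5.83%). For ZEB1 and ZNF609 they were -0.17 and -0.0391 points (0% against 0.17% and 0% against 0.0391%).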

How the data were processed

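Peak lists of 10 libraries, 2 for each of 5 antibodies, were analysed. FastQC, Trimmomatic, Bowtie, Picard and MACS2 are named, per the submitters' processing notes, without versions. Not given in the sources used here were control, thresholds, filter and build. The authors called peaks on each library by itself. In the deposited files each peak has a fold (a linear ratio of summit height to background), a -log10 p, a -log10 q, a score equal to 10 times the -log10 q, and a summit offset. These are the authors' values and were used only within a list. Contig names are those of GRCh38, which was taken as the build. Read depth is unknown.

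Peaks on chromosomes 1 to 22 and X were kept. Peaks of the 2 lists of a protein were merged where they shared 1 bp or more, and merged regions holding both were kept. A gene was occupied where a region overlapped 1 kb on either side of a gene end (RefSeq, GRCh38.p14). A crowded 1-Mb bin had a median relative peak count above 2 over the 10 lists. Starts and strands came from the RefSeq promoter table, which matched 38 of 42 members; IFT22, TMEM67, BBS9 and TCTN2 had no entry. Analyses used python 3.11.15, pandas 2.3.3 and numpy 2.4.6, and the overlap code was tested on simulated data. By the rule for named genes, values are given for members with regions of 3 or more proteins, with a ZEB1 or ZNF609 region (there were 0), with no peak in any list (0), and with the highest ranked peak of each protein; the other members named with values were chosen after these were seen. The members and lists were chosen with earlier results of these data known. No test over genes was made. Alternatives covered the window, the peak threshold, the overlap, each replicate, crowded bins, the start alone and the background genes.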

Additional observations from a re-analysis of the deposited data

Results flagged for a closer look

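The difference between cilium genes and other protein-coding genes had opposite signs in both lists of INTS13 and both lists of 2 other proteins. INTS13 was at more cilium genes than other genes in replicate 1 and in replicate 2 (18.1 and 5.68 points). ZEB1 was at fewer in both (-10.9 and -3.72 points), and so was ZNF609 (-2.24 and -3.44). For regions found in both replicates, the INTS13 difference exceeded that of ZEB1 by 6.73 points and that of ZNF609 by 4.51 points. These differences between proteins were not tested. ZEB1 and ZNF609 were at 3.79% and 1.57% of other genes, which leaves little room below. Outside crowded bins their regions were at 0% of members, beside 0.17% and 0.0391% of other genes.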

How the results depend on the processing

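Differences are cilium genes minus other protein-coding genes, in percentage points. With a region in either replicate INTS13 stood at 18.2, INTS11 at 2.53, HDGF at 5.92, ZEB1 at -9.72 and ZNF609 at -3.50, so INTS11 and HDGF changed sign. Leaving out 1 replicate, INTS13 ranged from 5.68 to 18.1, INTS11 from -15.1 to 4.76, HDGF from -3.63 to 6.76, ZEB1 from -10.9 to -3.72 and ZNF609 from -3.44 to -2.24; INTS11 and HDGF turned positive without replicate 2. INTS13 became negative with windows of 5 kb (-0.541), a -log10 q of 5 or more (-11.0), the top 10000 peaks (-2.29) and genes with another protein (-6.86, 10 members). Outside crowded bins HDGF was 1.14 and ZEB1 -0.17. ZNF609 was -2.99 with 5 kb, -0.0703 with a -log10 q of 5 or more, -0.512 for the top 10000 peaks, -0.0391 outside crowded bins and -2.43 among genes with another protein. The start-base difference of INTS13 replicate 1, 32.6, was 41.6 outside crowded bins, 3.10 with a -log10 q of 5 or more and -0.353 for the top 10000 peaks. That of replicate 2, -20.1, was -3.24 and -1.35 for the last 2 settings; alternatives for this measure were chosen after seeing the data. Windows of 500 bp, a stricter overlap between replicates and the start window alone kept the sign for all 5 proteins. Stricter thresholds leave fewer peaks; other causes were not tested. No paired analysis was possible because the results come from no test. The unknown read depth limits what an absent peak means.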

Other observations

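Starts inside gene bodies were listed for several members. CC2D2A has one 9.35 kb inside the gene, with INTS13 folds of 2.51 and 1.83 in replicates 1 and 2 and summits 636 and 533 bp downstream of it, whereas its outer end had a peak in 1 list. The inner start of B9D1, 15.2 kb into the gene, lay in INTS13 peaks of 12728 and 15285 bp, with folds of 3.89 and 3.13, and carried INTS11 folds of 2.82 and 2.53. HDGF replicate 2, ZEB1 replicate 1 and ZNF609 replicate 1 also had peaks there (folds of 3.25, 3.07 and 2.70). At the inner start of MKKS, HDGF replicate 2 alone had a peak, with a fold of 3.72.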
